A study of Mus musculus with 10 samples.

Results

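The SOCS family (suppressors of cytokine signalling) and its relative Cish were followed across a loop of 10 two-colour arrays of mouse FDB1 cells. The members are all genes whose symbol in the array annotation is Cish or Socs followed by a digit. They are 8 genes, measured by 9 probes, among 15097 genes with a symbol and 20243 features in all. Cish, Socs1, Socs2, Socs3, Socs4, Socs5 and Socs7 had 1 probe each, and the 2 probes of Socs6 were averaged. Members were picked by name and not by a measured value, but the family was chosen with earlier results of these data known.

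FDB1 is a mouse myeloid progenitor line that depends on interleukin-3 (IL-3). Both lines studied were derived from it. The Y577F line carries the receptor mutant FI-Delta with the further change Y577F, a tyrosine replaced by phenylalanine, and the FI-Delta line carries FI-Delta without that change. FI-Delta is an activated form of the common beta chain, the signalling subunit that the receptors for IL-3, IL-5 and GM-CSF have in common. The replaced tyrosine is known as a docking site for the adaptor Shc. RNA came from 4 groups, namely Y577F cells washed free of the factor and kept without it for 72 h, Y577F cells growing in IL-3 (0 h), FI-Delta cells kept without it for 72 h, and FI-Delta cells growing in IL-3 (0 h). Each line had 2 biological replicates according to the design text, so 2 cultures stand for each group, and both lines also still hold the receptors of FDB1 itself. No RNA came from cells kept in IL-3 for 72 h, so effects of factor loss, of washing and of time cannot be told apart. The labels do not say how the mutants were introduced or whether a line is 1 clone.

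SOCS proteins are feedback inhibitors of cytokine receptors. A cytokine activates JAK kinases on its receptor, the kinases phosphorylate STAT factors, and STATs switch on genes that include those of the SOCS family. Each SOCS protein has an SH2 domain, which binds phosphorylated tyrosines, and a SOCS box, which recruits elongins and a cullin ubiquitin ligase. Cish and Socs2 are classic STAT5 targets in cells that respond to IL-3 and GM-CSF. Socs1 and Socs3 also carry a short region that blocks the JAK kinase directly. Socs1 is known for restraining interferon signalling, and Socs3 for restraining receptors that signal through gp130 and the G-CSF receptor.

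The genes lie on separate chromosomes, apart from Socs3 and Socs7. In the GRCm38.p6 annotation Cish is at chr9:107296659-107302784, Socs1 at chr16:10783808-10785536, Socs2 at chr10:95383903-95417321 and Socs3 at chr11:117966079-117970336. Promoter sequence was read because members of the family are known STAT targets. The 250 bases before each start site were searched for TTCNNNGAA, the STAT consensus, which reads the same on both strands, and for the same letters with 4 free bases in place of 3, which share no match with it. RefSeq promoters were found for 4 members, Cish, Socs1, Socs3 and Socs4, and those of the first 3 are shown because the results turn on these genes. Capitals mark a match.
Cish, the 250 bases before its start, chr9:107296409-107296658, plus strand: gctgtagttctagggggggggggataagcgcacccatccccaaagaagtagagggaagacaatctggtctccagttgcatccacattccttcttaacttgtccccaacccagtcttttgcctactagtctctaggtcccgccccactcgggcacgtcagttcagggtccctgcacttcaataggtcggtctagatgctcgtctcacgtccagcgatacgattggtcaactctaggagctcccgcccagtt
Socs1, the 250 bases before its start, chr16:10785537-10785786, minus strand: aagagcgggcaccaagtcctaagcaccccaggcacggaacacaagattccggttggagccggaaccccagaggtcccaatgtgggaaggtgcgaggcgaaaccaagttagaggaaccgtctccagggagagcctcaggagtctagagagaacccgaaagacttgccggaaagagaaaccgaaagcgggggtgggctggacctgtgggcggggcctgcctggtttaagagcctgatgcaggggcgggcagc
Socs3, its match with 10 bases on each side, chr11:117969502-117969530, minus strand: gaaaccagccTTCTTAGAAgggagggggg
The 250 bases before the start of Socs3 hold 1 match to TTCNNNGAA, TTCTTAGAA, from base -154 to base -146. That start is the one in the RefSeq promoter table and lies inside the annotated span of Socs3. The windows of Cish, Socs1 and Socs4 hold 0 matches to it, and none of the 4 windows has a match to the longer form. Of 32851 mouse promoters of that length, 7.02% hold TTCNNNGAA and 5.85% hold the longer form. A match in this window is a description of the letters only.

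The arrays gave log ratios of RNA pairs, so each value is a difference between groups and none is a level. A direct hybridisation of Y577F against FI-Delta cells was made on 2 arrays for 72 h and 3 for 0 h. A direct hybridisation of 72 h against 0 h was made on 2 arrays with Y577F cells and 3 with FI-Delta cells. FI-Delta time arrays 1 and 2 carried the same RNA extracts in opposite dyes and were averaged, which left 9 hybridisations. All values are log2 ratios turned so that a positive value means higher at 72 h or higher in Y577F cells. The direction and base 2 are assumed. If the deposited ratios ran the other way, all directions below would be opposite. Model values are limma estimates ± standard error (SE) over all 9 hybridisations, and a gene was called at a Benjamini-Hochberg adjusted p under 0.05 over all 20243 features. After turning, the pairs of 72 h arrays and of Y577F time arrays, each in opposite dyes, correlated across features at r = 0.52 and r = 0.63. FI-Delta time arrays 1 and 2, the dye swap of the same extracts, had the lowest r of their kind, 0.24. FI-Delta time arrays 2 and 3, in opposite dyes, had r = 0.35, and arrays 1 and 3, in the same dye orientation, had r = 0.54. At 0 h, array 1, the only 0 h array with FI-Delta RNA in Cy5, had r of 0.09 and -0.04 against arrays 2 and 3. Arrays 2 and 3, both with Y577F RNA in Cy5, correlated with each other at r = 0.36. The direct 0 h arrays that remain without array 1 thus share their dye orientation. The 0 h values of Cish, Socs1, Socs2 and Socs3 are therefore given with and without 0 h array 1. In RNA from whole cultures, fewer cells of a kind and less RNA per cell cannot be told apart.

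Cish rose at 72 h in both lines and was higher in Y577F cells than in FI-Delta cells at 72 h. On the Y577F time arrays Cish had log2 ratios of 0.45 and 0.65. On the FI-Delta time arrays it had 0.47, 0.09 and 0.46, with the first and second being the dye swap of the same extracts. All 5 values were above 0, and the lowest came from 1 array of that swap. The model put the change at 0.53 ± 0.08 in Y577F cells (1.45-fold, adjusted p = 0.000441) and at 0.35 ± 0.08 in FI-Delta cells (1.27-fold, adjusted p = 0.0169). The difference between these changes was 0.18 with a 95% interval from -0.01 to 0.37 and did not pass (adjusted p = 0.227). The FI-Delta call was lost without 0 h array 1 (adjusted p = 0.051) and without FI-Delta time array 3 (adjusted p = 0.118). That call was also lost with direct arrays only, and with RNA extracts as a replicate block and no dye term (adjusted p = 0.171). The estimate stayed between 0.31 and 0.39 over the settings tried.

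Between the lines, Cish had log2 ratios of 0.41 and 0.50 on the 72 h arrays and of 0.22, 0.38 and 0.38 on the 0 h arrays. Every one of these arrays put Y577F cells above FI-Delta cells. At 72 h the model value was 0.47 ± 0.08 (1.39-fold, adjusted p = 0.00139), a call lost with RNA extracts as a replicate block and no dye term (0.46, adjusted p = 0.0722). At 0 h it was 0.29 ± 0.07, which did not pass (adjusted p = 0.0729), and without 0 h array 1 it was 0.28 (adjusted p = 0.498). Set against FI-Delta cells at 0 h, the order of Cish was Y577F at 72 h (0.82, 95% interval 0.63 to 1.01), FI-Delta at 72 h (0.35), Y577F at 0 h (0.29), and FI-Delta at 0 h. FI-Delta cells at 72 h and Y577F cells at 0 h, neighbours in that order, differed by 0.06 with an interval from -0.12 to 0.25.

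Socs2, which binds the growth hormone receptor and is the other classic STAT5 target of the family, was called between the lines at 0 h and not over time. Its log2 ratios on the Y577F time arrays were -0.51 and -0.04. On the FI-Delta time arrays they were -0.003, -0.23 and -0.09. All 5 values were below 0, and those of the lines overlapped. The model gave -0.29 ± 0.10 in Y577F cells (adjusted p = 0.0655) and -0.10 ± 0.10 in FI-Delta cells (adjusted p = 0.676), and neither passed. Without Y577F time array 2 the Y577F value was -0.45 and passed (adjusted p = 0.0189). Between the lines, Socs2 had 0.27 and 0.13 on the 72 h arrays and 0.51, 0.38 and 0.38 on the 0 h arrays, all above 0. At 0 h the value was 0.41 ± 0.09 (1.32-fold, adjusted p = 0.049), just under the threshold, and at 72 h it was 0.22 ± 0.10 (adjusted p = 0.191). The 0 h call held under 10 of 21 other settings. Without 0 h array 1 the value was 0.31 (adjusted p = 0.586), and it was also lost without 0 h array 2 (0.42, adjusted p = 0.136), 0 h array 3 (0.42, adjusted p = 0.111), 72 h array 1 (0.38, adjusted p = 0.14) or any of the FI-Delta time arrays (0.39 to 0.41, adjusted p from 0.0599 to 0.0811).

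**Figure D1:**
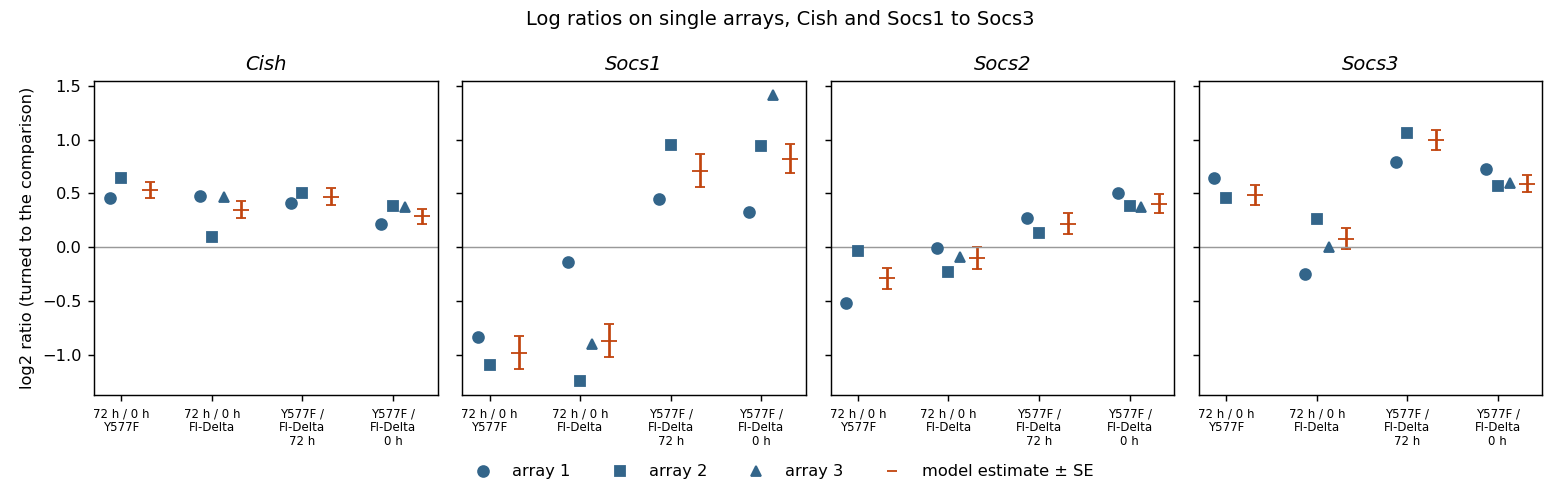
Log2 ratios of Cish, Socs1, Socs2 and Socs3 on each array, turned so that values above 0 are higher at 72 h or in Y577F cells (y axis), for the 4 kinds of array pair (x axis). Filled symbols are single arrays and bars are the model estimate ± SE. Socs1 lies below 0 on every time array and above 0 on every array of Y577F against FI-Delta, Cish lies above 0 on all 10, and Socs3 lies on both sides of 0 on the FI-Delta time arrays.

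Unlike Cish, Socs1 fell at 72 h in both lines, and it was higher in Y577F cells than in FI-Delta cells at both times. On the Y577F time arrays Socs1 had log2 ratios of -0.83 and -1.09, and on the FI-Delta time arrays -0.14, -1.24 and -0.90. All were below 0. The FI-Delta values of -0.14 and -1.24 came from the same extracts in opposite dyes, the widest gap among the time arrays of Socs1. A dye term of 0.18 ± 0.09 for Socs1 in the model did not pass (adjusted p = 0.335). Socs1 fell by 0.98 ± 0.15 in Y577F cells (1.97-fold, adjusted p = 0.000819) and by 0.87 ± 0.16 in FI-Delta cells (1.82-fold, adjusted p = 0.0052). Both calls held under all 21 other settings, with adjusted p up to 0.0192 in Y577F cells and 0.0489 in FI-Delta cells. Socs1 has 1 probe, so the single-probe setting used the same Socs1 values. The difference between these changes was -0.11, with an interval from -0.49 to 0.27 (adjusted p = 0.743).

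Between the lines Socs1 had 0.44 and 0.95 on the 72 h arrays and 0.33, 0.94 and 1.41 on the 0 h arrays. Y577F cells were higher on all 5 arrays, and the lowest value at each time came from the array with FI-Delta RNA in Cy5. The model gave 0.71 ± 0.15 at 72 h (1.64-fold, adjusted p = 0.00876) and 0.82 ± 0.14 at 0 h (1.77-fold, adjusted p = 0.011). Without 0 h array 1 the 0 h value was 1.06 (adjusted p = 0.0304). Without 72 h array 2 the 72 h call was lost (adjusted p = 0.106). With cultures as a replicate block the 0 h value was 0.84 (adjusted p = 0.0561). Against FI-Delta cells at 0 h, Socs1 was ordered as Y577F at 0 h (0.82), FI-Delta at 0 h, Y577F at 72 h (-0.15, 95% interval -0.53 to 0.23) and FI-Delta at 72 h (-0.87). The neighbours FI-Delta at 0 h and Y577F at 72 h did not differ beyond their error. The widest gap was between FI-Delta cells at 72 h and Y577F cells at 0 h, at -1.69 ± 0.17.

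Socs3 was higher in Y577F cells than in FI-Delta cells at both times, and rose at 72 h in Y577F cells. On the 72 h arrays Socs3 had log2 ratios of 0.79 and 1.06, and on the 0 h arrays 0.73, 0.57 and 0.60. Every array put Y577F cells above FI-Delta cells, and the 72 h values lay above the 0 h values. The model gave 0.99 ± 0.09 at 72 h (1.99-fold, adjusted p = 2.6e-05), a call that held under all 21 other settings with values from 0.87 to 1.15. At 0 h it gave 0.59 ± 0.08 (1.51-fold, adjusted p = 0.00437), and without 0 h array 1 the value of 0.51 did not pass (adjusted p = 0.143), nor did the value of 0.59 with RNA extracts as a replicate block and no dye term (adjusted p = 0.23). By size of change, Socs3 ranked 306 of 20243 features at 72 h and 117 at 0 h.

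Over time, Socs3 had log2 ratios of 0.64 and 0.46 on the Y577F time arrays. On the FI-Delta time arrays it had -0.25, 0.26 and -0.001. The Y577F values lay above all 3 FI-Delta values, and the dye swap of the same FI-Delta extracts gave opposite signs. The model gave a rise of 0.48 ± 0.09 in Y577F cells (1.40-fold, adjusted p = 0.00335), which did not pass without Y577F time array 1 (0.38, adjusted p = 0.078). In FI-Delta cells it gave 0.08 ± 0.10 (adjusted p = 0.73). The difference between the 72 h changes of Y577F and FI-Delta cells was 0.40 with an interval from 0.17 to 0.63 (adjusted p = 0.0365). That call held under 8 of 21 other settings, with values from 0.30 to 0.54 and adjusted p from 0.0152 to 0.197. Of the 10 arrays left out in turn, only the removal of 72 h array 1 kept it (0.50, adjusted p = 0.0152), and removal of any other array gave values from 0.34 to 0.47 with adjusted p from 0.0508 to 0.186. The order of Socs3 was Y577F at 72 h (1.07), Y577F at 0 h (0.59), FI-Delta at 72 h (0.08) and FI-Delta at 0 h, and the last pair did not differ beyond their error.

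**Figure D2:**
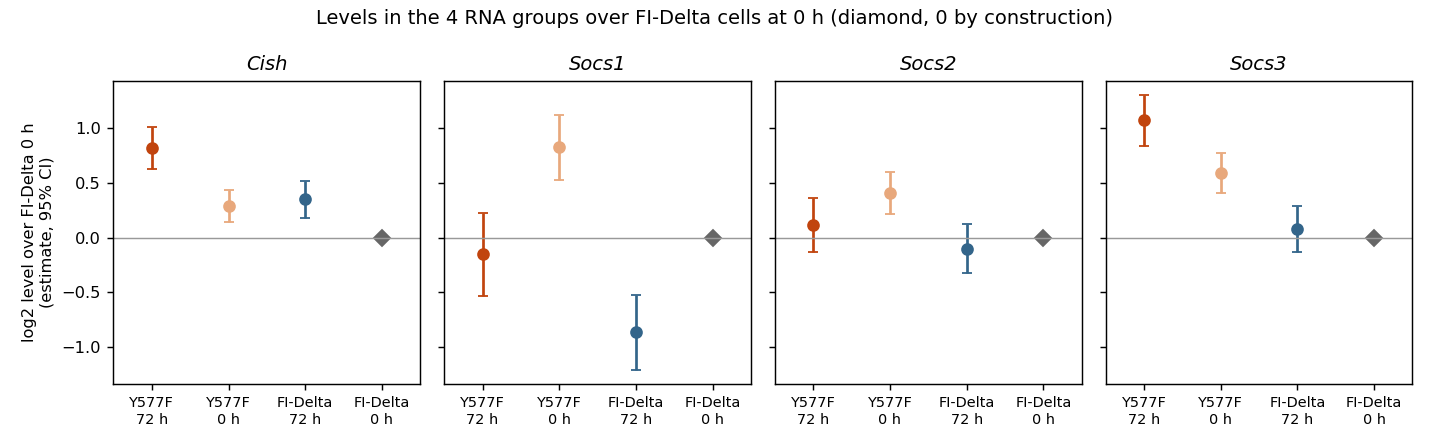
Model estimates of Cish, Socs1, Socs2 and Socs3 in each RNA group as a log2 difference from FI-Delta cells at 0 h (y axis), with 95% confidence intervals; the diamond is FI-Delta at 0 h, set to 0. The highest group is Y577F at 72 h for Cish (0.82) and Socs3 (1.07) and Y577F at 0 h for Socs1 (0.82) and Socs2 (0.41).

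Socs4, Socs5, Socs6 and Socs7 are the less studied members. Socs4 and Socs5 are best known for acting on the EGF receptor, and Socs6 for acting on Kit. None of them was called in any of the 5 comparisons. Their model values lay between -0.23 (Socs5 over time in FI-Delta cells) and 0.24 (Socs6 at 72 h). Socs4 had 0.27 and -0.02 on the Y577F time arrays and -0.06, 0.16 and -0.13 on the FI-Delta time arrays, which overlapped around 0. Between the lines Socs4 had 0.14 and 0.22 at 72 h and -0.12, 0.03 and -0.09 at 0 h, and the model values were 0.16 (adjusted p = 0.286) and -0.04 (adjusted p = 0.904).

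Socs5 had 0.006 and -0.42 on the Y577F time arrays and 0.15, -0.66 and -0.10 on the FI-Delta time arrays. The FI-Delta extracts in opposite dyes thus gave both its highest and its lowest value. Between the lines Socs5 had 0.03 and 0.28 at 72 h and -0.02, -0.14 and 0.15 at 0 h, with intervals from -0.13 to 0.34 at 72 h and from -0.18 to 0.24 at 0 h. Socs7 was the most scattered member, with -0.44 and 0.25 on the Y577F time arrays and 0.59, -0.31 and 0.26 on the FI-Delta time arrays. Between the lines Socs7 had -0.36 and 0.09 at 72 h and -0.30, 0.75 and -0.04 at 0 h. Within each kind of pair its ratio was higher on the arrays with the numerator RNA in Cy5, and its dye term was 0.29 ± 0.08 (adjusted p = 0.102).

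Socs6 had 0.16 and 0.22 on the Y577F time arrays and 0.03, -0.06 and 0.05 on the FI-Delta time arrays. Between the lines it had 0.35 and 0.10 at 72 h and 0.21, 0.13 and 0.06 at 0 h, above 0 on all 5 arrays. The 72 h value of 0.24 ± 0.08 did not pass (adjusted p = 0.0753) and had an interval from 0.07 to 0.42. Its 2 probes disagreed in part. At 0 h the probe of transcript AK005238 gave 0.44, 0.14 and 0.22, and the probe of NM_018821 gave -0.03, 0.13 and -0.10. At 72 h the AK005238 probe gave 0.51 and 0.05 and the NM_018821 probe 0.19 and 0.15.

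Counted over the family, 3 of 8 genes were called over time in Y577F cells, with Cish and Socs3 higher and Socs1 lower, against 9.28% of all features called higher and 8.75% called lower. In FI-Delta cells 2 were called, with Cish higher and Socs1 lower, against 5.19% and 2.97% of all features. At 72 h, Cish, Socs1 and Socs3 were called higher in Y577F than in FI-Delta cells, against 6.44% of features called higher and 6.45% called lower. At 0 h, Socs1, Socs2 and Socs3 were called higher in Y577F cells, against 0.934% of features called higher and 0.484% called lower. In the difference between the 72 h changes 1 gene, Socs3, was called higher, against 4.33% of features called higher and 4.91% called lower. The median change of the 8 genes was 0.02 over time in Y577F cells, 0.0059 in FI-Delta cells, 0.23 between the lines at 72 h and 0.21 at 0 h. The medians over all features in these comparisons lay between -0.0059 and 0.0073. The 0 h count of 3 became 1 without 0 h array 1, 1 with cultures as a replicate block, and 0 with RNA extracts as the block and the dye term left out. The FI-Delta count of 2 became 1 without 0 h array 1 or without FI-Delta time array 3. The comparisons share arrays and RNA extracts, so their counts are not independent of each other.

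**Figure D3:**
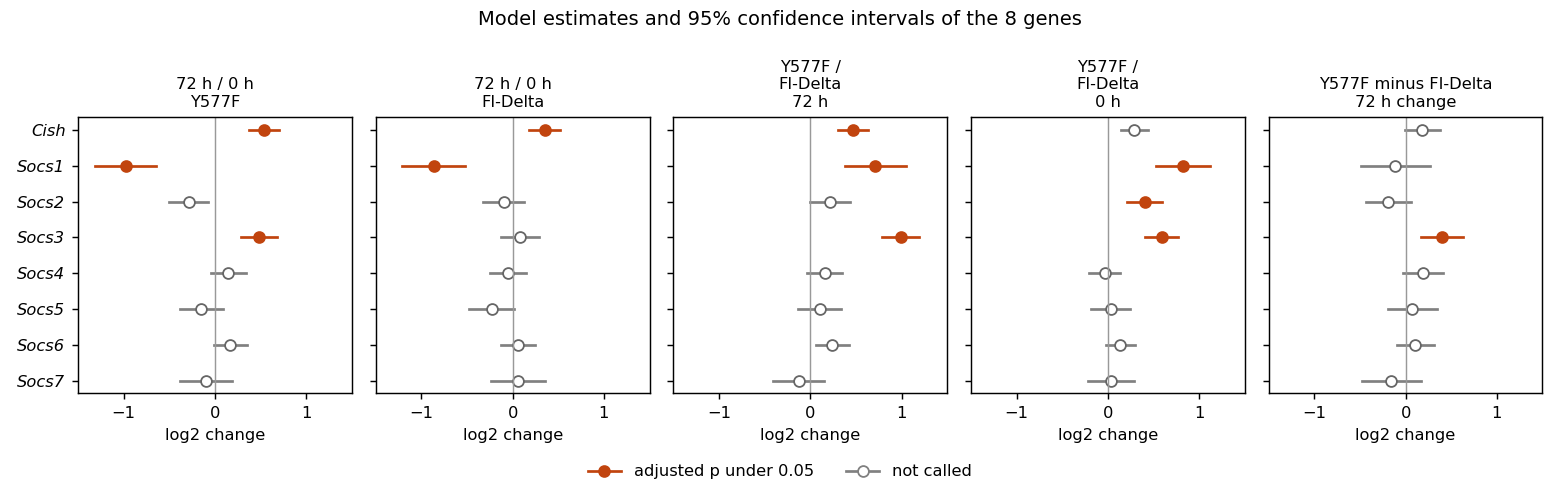
Model estimates (dots) and 95% confidence intervals (bars) of all 8 genes, as log2 changes on the x axis, in the 5 comparisons; filled dots passed an adjusted p of 0.05. Calls fall on Cish, Socs1, Socs2 and Socs3, and the other 4 genes have none.

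Likeness between members was measured as the cosine of their log ratios over the 10 arrays, which share extracts, so no p is given. The highest pairs were Socs3 and Socs6 (0.81), Cish and Socs6 (0.79), Socs1 and Socs2 (0.75), and Cish and Socs3 (0.75). Socs1 and Socs5 followed at 0.67, and the lowest pair was Socs2 and Socs4, at -0.39. Socs6 was not called in any comparison, and its probes disagreed in part. Cish and Socs1 had -0.01, and Socs1 and Socs3 had 0.30. Candidates for a like pattern were 4279 other features with a gene symbol. Each was called by the model in at least 1 comparison other than the difference between the 72 h changes. The patterns most like that of Cish were those of the leukocyte tetraspanin gene Cd53 (0.97), the interferon pathway factor Stat2 (0.97), the formyl peptide receptor gene Fpr2 (0.97) and Tnf (0.97). Those most like Socs1 were Slc7a8, an amino acid transporter gene (0.97), Trappc6a (0.97), the IL-18 receptor chain gene Il18rap (0.96) and the profilin gene Pfn1 (0.95). Those most like Socs2 were Rnaseh1 (0.96), Gpr34 (0.94), Sqstm1 (0.94) and 4930539J05Rik (0.93). Those most like Socs3 were Ssu72 (0.97), Htr1f (0.96), P2ry14 (0.94) and Sh3glb1 (0.93).

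Of 22 measured receptor chains that SOCS proteins act on, 11 rose and 1 fell over time in Y577F cells, where 9.28% of all features rose and 8.75% fell. In FI-Delta cells 4 rose and 1 fell, where 5.19% of all features rose and 2.97% fell. Their median change was 0.29 in Y577F cells, 0.05 in FI-Delta cells and 0.21 between the lines at 72 h. The GM-CSF receptor alpha chain gene Csf2ra rose by 1.59 ± 0.10 in Y577F cells and by 0.98 ± 0.10 in FI-Delta cells, and the G-CSF receptor gene Csf3r rose by 1.29 ± 0.10 and by 0.75 ± 0.10 in the same lines. Between the lines 6 chains were higher in Y577F cells at 72 h, against 6.44% of all features. Among them were Csf2rb2, the mouse IL-3-specific beta chain (1.33 ± 0.09), Il10ra (0.90 ± 0.09) and the IL-3 receptor alpha chain Il3ra (0.71 ± 0.09). At 0 h 2 were higher, Csf2rb2 (0.48 ± 0.08) and Il3ra (0.38 ± 0.08), against 0.934% of all features. Neither passed at 0 h without any 1 of the 3 0 h arrays. The Y577F count of 11 became 5 without Y577F time array 1, and the 1 that fell in FI-Delta cells became 2 without FI-Delta time array 1. The difference in the 72 h change was called higher for 6 chains, against 4.33% of all features, and for 3 chains without 72 h array 2.

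Of 9 measured JAK and STAT genes, 3 rose and 2 fell over time in Y577F cells (9.28% and 8.75% of all features), and 1 rose and 3 fell in FI-Delta cells (5.19% and 2.97% of all features). Their median change was 0.20 in Y577F cells, 0.05 in FI-Delta cells and 0.22 between the lines at 72 h. Jak2, the kinase bound to the common beta chain, fell in both lines. Its change was -0.58 ± 0.08 in Y577F cells and -0.31 ± 0.08 in FI-Delta cells (adjusted p = 0.0323). The difference between these changes did not pass (-0.26 ± 0.09, adjusted p = 0.0927). Stat5a, which switches on Cish, fell by 0.51 ± 0.09 in FI-Delta cells, and was 0.62 ± 0.09 higher in Y577F cells at 72 h. The difference between the 72 h changes of Stat5a was 0.71 ± 0.10 (adjusted p = 0.00126), called under all 20 other settings. At 72 h 4 genes of the list were higher in Y577F cells, Stat5a and the kinase gene Tyk2 (0.40 ± 0.09) among them, and Stat4 (-0.53 ± 0.10) was lower. Of all features, 6.44% were called higher there and 6.45% lower. At 0 h 1 was called higher, Jak2 (0.34 ± 0.07), against 0.934% of all features. The Jak2 call held under 8 of 20 other settings and was lost without 0 h array 1. The count of 4 became 1 without 72 h array 1, the 3 that fell in FI-Delta cells became 1 without the second FI-Delta time array and 0 without the third, and the 2 that fell in Y577F cells became 1 without Y577F time array 1. Stat4 did not pass without 72 h array 2.

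Other inhibitors of the pathway are phosphatases, PIAS proteins and adaptors. Of 18 measured, 7 rose and 1 fell in Y577F cells (9.28% and 8.75% of all features), with a median of 0.23. In FI-Delta cells 4 rose and 1 fell (5.19% and 2.97% of all features), with a median of 0.14. Ptpn6, the phosphatase SHP-1, rose by 0.77 ± 0.08 in Y577F cells and by 0.37 ± 0.08 in FI-Delta cells (adjusted p = 0.0149). The difference between these changes was 0.40 ± 0.09 (adjusted p = 0.0161), called under 15 of 20 other settings. The adaptor gene Sla rose by 0.70 ± 0.09 in Y577F cells and by 0.92 ± 0.10 in FI-Delta cells, and Ptprc, the phosphatase CD45, rose by 0.62 ± 0.10 and by 0.69 ± 0.10 in the same lines. At 72 h Ptpn6 (0.30 ± 0.08) and Sla2 (0.38 ± 0.08) were higher in Y577F cells, and the ubiquitin ligase gene Cbl was lower (-0.34 ± 0.08). Of all features, 6.44% were called higher there and 6.45% lower. At 0 h limma called 0 of the 18, and 1 had an unadjusted p under 0.05. The FI-Delta count of 4 became 2 without FI-Delta time array 3, the 1 that fell in FI-Delta cells was lost without any 1 of the 10 arrays, and the 1 that fell in Y577F cells was lost without Y577F time array 1. Ptpn6 and Sla2 at 72 h did not pass without 72 h array 1 or without 72 h array 2, nor Cbl without 72 h array 1.

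Of 8 measured genes of the SOCS box ubiquitin ligase, 1 was called over time in Y577F cells, against 9.28% of all features called higher and 8.75% called lower. It was the NEDD8-conjugating enzyme gene Ube2f, which rose (0.42 ± 0.09). The call was lost without Y577F time array 2. In FI-Delta cells Ube2f had 0.33 ± 0.09, which did not pass (adjusted p = 0.0503). At 72 h Eloc, elongin C, was lower in Y577F cells (-0.39 ± 0.09) and Nedd8 was higher (0.30 ± 0.09), against 6.45% of all features called lower and 6.44% called higher. The difference in the 72 h change was also called lower for Eloc (-0.41 ± 0.10), under 9 of 20 other settings. Eloc did not pass without 72 h array 1 or without 72 h array 2, and Nedd8 passed under 5 of 20 other settings. Of 21 other SOCS box genes, the ankyrin repeat gene Asb6 rose by 1.34 ± 0.10 over time in Y577F cells and was 0.93 ± 0.10 higher in Y577F cells at 72 h, and both calls held under all 20 other settings. At 72 h Asb11 (-0.44 ± 0.10) and Asb7 (-0.30 ± 0.08) were lower in Y577F cells, and neither passed without 72 h array 1 or without 72 h array 2. At 72 h the median between the lines was 0.04 for the ligase genes and 0.05 for the other SOCS box genes. Asb11 fell over time in Y577F cells (-0.37 ± 0.10), a call lost without Y577F time array 1 or 72 h array 1.

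Of 18 known STAT5 targets outside the family, 7 rose and 2 fell over time in Y577F cells (9.28% and 8.75% of all features). In FI-Delta cells 5 rose (5.19% of all features), and at 72 h 7 were higher in Y577F cells (6.44% of all features). Their median change was 0.14 in Y577F cells, -0.0058 in FI-Delta cells and 0.24 between the lines at 72 h. Egr1 and Fos were the largest of them, and both are better known as immediate-early targets of ERK signalling. Egr1 rose by 3.03 ± 0.10 in Y577F cells and by 1.41 ± 0.11 in FI-Delta cells. Mcl1, a survival gene of the Bcl2 family, rose by 1.29 ± 0.11 in Y577F cells and was 0.65 ± 0.11 higher in Y577F cells at 72 h, and the kinase gene Pim1 had a difference in the 72 h change of 0.79 ± 0.13. The Y577F counts of 7 and 2 became 4 and 1 without Y577F time array 1, and the 72 h count of 7 became 4 without 72 h array 2. At 0 h limma called 0 of the 18, and 4 had an unadjusted p under 0.05, 2 in each direction.

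Markers of blood cell types moved with the same comparisons. Over time, 9.28% of all features rose and 8.75% fell in Y577F cells, and 5.19% rose and 2.97% fell in FI-Delta cells. Between the lines, 6.44% were higher and 6.45% lower in Y577F cells at 72 h, and 0.934% and 0.484% at 0 h. Of 9 monocyte and macrophage markers measured, 8 rose in Y577F cells (median 2.28) and 7 in FI-Delta cells (median 0.86), and all 9 were higher in Y577F cells at 72 h (median 1.71). Of 10 neutrophil granule markers, 8 rose in FI-Delta cells (median 1.36), and in Y577F cells 1 rose and 4 fell (median -0.29). All 10 were lower in Y577F cells at 72 h (median -2.69) and 9 were lower at 0 h (median -1.09). With each array left out, the 0 h count lay between 7 and 9. Among 8 markers of mast cells and basophils, 5 fell and 1 rose over time in Y577F cells (median -0.73), and 5 fell in FI-Delta cells (median -0.95). The 1 that rose did not pass without Y577F time array 1. At 72 h 4 of them were higher in Y577F cells, Cpa3 (2.29 ± 0.10) and Gzmb (2.79 ± 0.12) among them, and 1 was lower (median 0.39). At 0 h 4 monocyte markers and 3 mast cell markers were higher in Y577F cells and 1 mast cell marker was lower. The lower one did not pass without 0 h array 2, and without 0 h array 1 no marker of either list was called there. Ratios carry no level, so these lists describe differences only and do not show which cell type a culture held. Their part in the changes of Cish, Socs1, Socs2 and Socs3 was not tested.

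**Figure D4:**
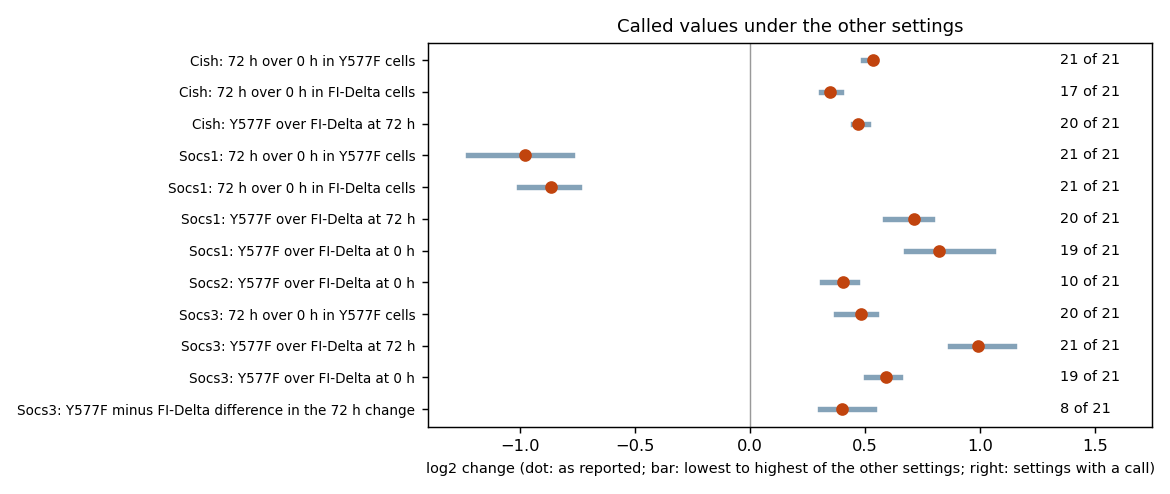
Called values of the family under other settings, as log2 changes on the x axis: the dot is the reported estimate, the bar runs from the lowest to the highest value of the other settings, and the number at the right is how many of them kept the call. Socs1 over time and Socs3 at 72 h kept theirs in 21 of 21, and the Socs3 difference in 8 of 21.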

How the data were processed

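Total RNA was labelled indirectly with Cy5 and Cy3 and hybridised in pairs to 10 spotted arrays, per the labels' protocols. The authors deposited a normalised log2 ratio of both channels for each spot. Base 2 and the direction Cy5 over Cy3 are assumed, because the submitters' processing notes name limma, without a version, and limma writes its ratios that way. How background and normalization were handled is not given in the sources used here. Signal intensities were not used here, and precision is limited by the small number of arrays. Of 23040 spots, 1243 controls were left out. Of the 21797 probes kept, 16651 had 1 gene symbol in the array annotation, 137 had several and 5009 had none. Probes of 1 symbol were averaged, which gave 20243 features.

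Ratios were turned by the lines and times in the labels. The technical dye swap was averaged. limma 3.58.1 in R 4.3.3 fitted a dye term and 3 coefficients, which link the 4 RNA groups, with 5 residual and 6.34 prior degrees of freedom. The dye term was called in 146 features. Tests were two-sided, with Benjamini-Hochberg adjustment over all features within a comparison. The fit was tested on simulated data. The p-values treat hybridisations as independent, although arrays share RNA extracts. Replicate numbers are given to opposite lines on arrays with Y577F RNA in Cy5. Extracts were therefore read as 2 cultures of each line in title order. That reading was used in the replicate blocks and to find the technical dye swap, whose arrays held FI-Delta RNA only.

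The members and the gene lists were chosen with earlier results of these data known. The result of 1 gene list is not reported here. Named genes are all members, up to 3 called genes of each list in a comparison by size of change, and the 4 features most like each called member. Gene positions and promoters are from RefSeq (GRCm38.p6). Promoters were read for 4 of the 8 members, with those on chromosome 18, where Socs6 lies, left out. Alternatives were no dye term, all arrays entered separately, array weights, direct arrays only, replicate blocks by culture or, with no dye term, by RNA extract, centred and scaled arrays, single probes, features with a symbol, the 10121 features of highest spread, robust moderation, and each array left out in turn.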

Additional observations from a re-analysis of the deposited data

Results flagged for a closer look

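The change of Socs3 over 72 h differed between the lines, with a log2 difference of 0.40 (Y577F minus FI-Delta, limma, adjusted p = 0.0365). It was 0.48 in Y577F cells, higher on 2 of 2 time arrays, and 0.08 in FI-Delta cells, higher on 1 of 3. The call held under 8 of 21 other settings, was lost under both replicate blocks, and was lost without any 1 array other than 72 h array 1 (adjusted p from 0.0152 to 0.197 over the settings).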

How the results depend on the processing

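Over 21 other settings, the calls of Socs1 over time in both lines, of Cish over time in Y577F cells and of Socs3 at 72 h held throughout. The number of family genes called over time in FI-Delta cells was 2, and 1 with direct arrays only and with the replicate block by RNA extract, a setting that also drops the dye term here and below (1 to 2 with each array left out). At 0 h it was 3, and 1 with the replicate block by culture and 0 with the block by RNA extract and no dye term, where 22 features were called in all (1 to 3 with each array left out). At 72 h it was 3, and 5 with array weights, which added Socs2 and Socs6. For the difference between changes it was 1, and 0 with direct arrays only, both replicate blocks, and centred and scaled arrays (0 to 1 with each array left out). With the replicate block by RNA extract and no dye term, Cish at 72 h (adjusted p = 0.0722), Cish over time in FI-Delta cells (adjusted p = 0.171) and Socs1 (adjusted p = 0.124) and Socs3 (adjusted p = 0.23) at 0 h did not pass. The cause was not tested. Each block takes the pairing of cultures from title order.

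Reversed values belonged to results that were not called. Socs4 over time in FI-Delta cells was 0.0121 with array weights. Socs5 at 0 h was -0.0013 with the 10 arrays entered separately and -0.0037 with direct arrays only, where its difference between changes was -0.0288. Socs7 at 0 h was -0.12 with the replicate block by culture and -0.0917 with the block by RNA extract and no dye term. With each array left out, the values lay between -0.0002 and 0.11 for Socs7 over time in FI-Delta cells, -0.27 and 0.0274 for Socs5 over time in Y577F cells, -0.29 and 0.0485 for the Socs1 difference, -0.0509 and 0.22 for the Socs5 difference, -0.0739 and 0.0411 for Socs4 at 0 h, -0.0402 and 0.0894 for Socs5 at 0 h, -0.12 and 0.16 for Socs7 at 0 h, and -0.0354 and 0.18 for Socs5 at 72 h.

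Counts over all features moved more. In Y577F cells over time 3649 features were called, and 1721 with the block by RNA extract and no dye term. In FI-Delta cells there were 1652, 3786 with array weights and 544 with that block. At 72 h there were 2609, 5537 with array weights and 1060 with that block. At 0 h there were 287, 445 with array weights and 57 without 0 h array 1. For the difference there were 1871, 371 with direct arrays only and 440 with that block. Direct arrays only gave 939 over time in FI-Delta cells and 176 at 0 h, where the block by culture gave 130. With 1 array left out, counts fell as low as 1949 over time in Y577F cells (without Y577F time array 1), 887 in FI-Delta cells (without FI-Delta time array 3), 1403 at 72 h (without 72 h array 2) and 911 for the difference (without 72 h array 2).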
